A study of Mus musculus with 2 samples.

Results

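Mir191 and Mir425 are neighbouring miRNA genes on the plus strand of mouse chromosome 9, and Gm24083 is a miRNA gene annotated on the minus strand over Mir191. The 3 genes were chosen by name among the 2202 miRNA genes of the deposited tables, of which 325 were detected with at least 10 sense reads in both libraries. Mir191 and Mir425 were among those 325, and Gm24083 was not. Both libraries were microRNA-seq libraries, which count short RNA reads, made from total RNA of heart. All tissue came from adult male mice of strain 5xFAD/CAST, 8 to 10 months old. 5xFAD mice carry transgenes that lead to amyloid plaques in the brain, and CAST names an inbred strain derived from wild mice. The libraries, replicates 1 and 2, form a single group, so no untreated or wild-type group was compared. Their labels name 2 biosamples and 1 donor, and nothing says that separate animals were used. The spread between them may therefore be technical.

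A miRNA is cut from a hairpin precursor, whose 2 arms can each give a mature strand, named 5p or 3p. The mature strand guides a silencing complex to mRNAs mainly through its seed, bases 2 to 8 counted from its 5′ end. The miR-191 and miR-425 hairpins are transcribed as a cluster and are usually assigned to the host gene Dalrd3, which encodes a partner of a tRNA methyltransferase. miR-191 is found in many tissues and is often used as a reference in quantitative PCR. miR-425 has been reported to repress the mRNA of atrial natriuretic peptide, a hormone made by heart muscle.

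The mature strands are shown because their seeds decide which genes belong to one targeting family. They are RefSeq sequences (GRCm38.p6, chromosome 9, plus strand for the first 4), written 5′ to 3′ with the seed in capitals. RefSeq's table held 2 of the 3 genes, Mir191 and Mir425.
miR-191-5p: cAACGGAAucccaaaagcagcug
miR-191-3p: gCUGCACUuggauuucguuccc
miR-425-5p: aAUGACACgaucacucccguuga
miR-425-3p: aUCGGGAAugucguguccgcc
miR-489-3p: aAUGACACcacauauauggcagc

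The 4 mature strands of the cluster held 4 different seeds, so the hairpins belong to different seed families. Among the 1679 mature miRNA names in the RefSeq table, the seeds of miR-191-5p, miR-191-3p and miR-425-3p occurred in no other. The seed AUGACAC of miR-425-5p occurred in 1 other, miR-489-3p, which is printed last for that reason. miR-425-5p and miR-489-3p were identical from base 1 through base 8 and at 4 of the 15 positions after the seed. Mir489, the hairpin gene of miR-489-3p (chromosome 6, 3721897 to 3722003, minus strand), had 0 sense reads in both libraries. CPM is the sense count of a gene scaled to a sense total of 1000000 in its library. A count of 0 allows up to 3 reads, so up to 0.771 CPM (replicate 1) and 0.593 CPM (replicate 2). Against that floor of 3 reads per library, the Mir425 hairpin was at least 914-fold higher in replicate 1 and at least 945-fold higher in replicate 2. Per hairpin nucleotide the bounds were at least 1151-fold and at least 1190-fold. Reads of a mature strand need not rise in number with the length of its hairpin. Values per hairpin nucleotide are therefore a second scale, not a correction for length. Of the hairpin genes with this seed in the RefSeq table, Mir425 held all the reads given to a gene. These reads are of the whole hairpin, and only its 5p strand carries the seed.

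The hairpins themselves are shown with both mature arms in capitals, because the tables count a hairpin as a whole and do not tell its arms apart.
Mir191: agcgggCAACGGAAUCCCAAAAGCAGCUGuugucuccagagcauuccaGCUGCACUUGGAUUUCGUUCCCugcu
Mir425: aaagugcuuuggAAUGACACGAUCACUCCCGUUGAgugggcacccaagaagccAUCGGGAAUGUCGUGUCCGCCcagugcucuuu
Gm24083: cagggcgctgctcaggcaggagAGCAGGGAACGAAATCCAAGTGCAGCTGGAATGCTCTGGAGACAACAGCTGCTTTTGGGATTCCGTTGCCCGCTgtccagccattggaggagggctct

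The Mir191 and Mir425 hairpins are from RefSeq, and the Gm24083 transcript is from GENCODE M21, the annotation the tables use, in DNA letters. The capitals in Gm24083 mark bases 23 to 96, which are the reverse complement of the whole 74-nucleotide Mir191 hairpin. Gm24083 therefore covers all of Mir191 and extends 24 nucleotides to its left and 22 to its right on the chromosome. The longest stretch that the Mir191 hairpin shared with any other of the 2202 hairpins in the same orientation was 11 nucleotides. For Mir425 it was 13 nucleotides. RNAfold gave a predicted minimum free energy of -35.0 kcal/mol for Mir191, -31.7 kcal/mol for Mir425 and -58.6 kcal/mol for the 120-nucleotide Gm24083. Per nucleotide these were -0.47, -0.37 and -0.49 kcal/mol, beside a median of -0.37 over the 2202 genes. The 3 sequences are thus all predicted to fold at least about as stably per nucleotide as the median annotated hairpin.

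On mm10, Mir191 (ENSMUSG00000105497.1) lies on chromosome 9 from 108568319 to 108568392. Mir425 (ENSMUSG00000065579.1) lies from 108568777 to 108568861, and 384 nucleotides separate the hairpins. Gm24083 (ENSMUSG00000092915.1) lies from 108568295 to 108568414 on the minus strand.

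The annotations differed on whether the cluster lies in Dalrd3. RefSeq's Dalrd3 spans 108567484 to 108572773 and holds both hairpins, which start 835 and 1293 nucleotides after its start. In GENCODE M21, Dalrd3 starts at 108569886, which is 1024 nucleotides after the end of Mir425, so neither hairpin lies in it. There both hairpins lie in 4833445I07Rik, a long intergenic non-coding RNA gene from 108567533 to 108569174 on the plus strand. Mir191 is exonic in its transcript 4833445I07Rik-201, which has 1 exon, and intronic in 4833445I07Rik-202, which has 2. Mir425 is exonic in the first and begins 2 nucleotides past the end of the other. The tables count miRNA genes alone, so reads of Dalrd3 or 4833445I07Rik were not analysed here.

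**Figure D1:**
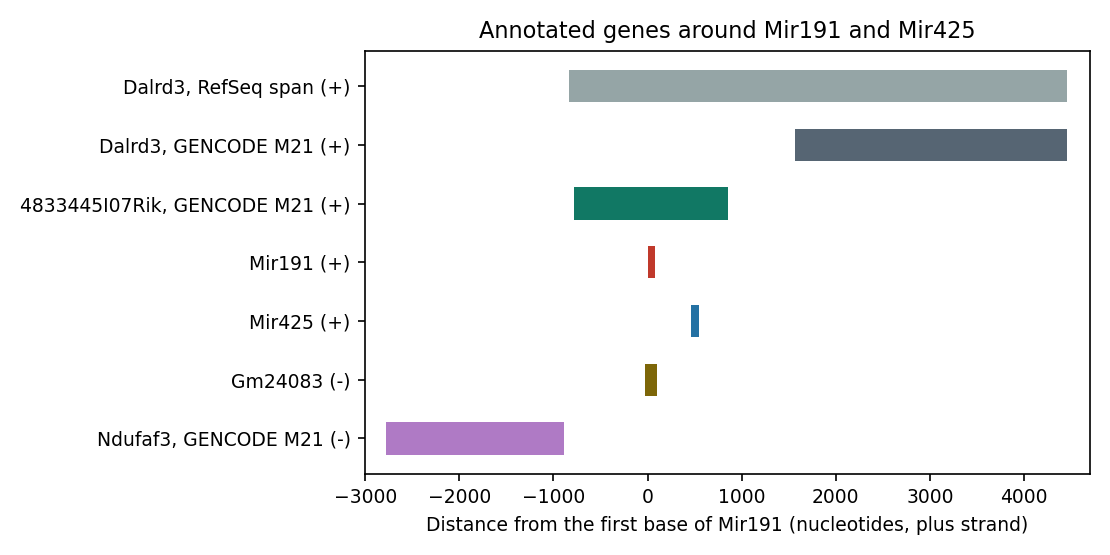
Annotated genes around Mir191 and Mir425, as bars drawn to scale, against the distance from the first base of Mir191 in nucleotides; the strand of each gene is in parentheses. Both hairpins lie within the RefSeq span of Dalrd3 and within 4833445I07Rik, and Dalrd3 as GENCODE M21 gives it begins 1024 nucleotides past Mir425.

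The deposited tables held 3889280 sense counts in replicate 1 and 5058613 in replicate 2, or 35.9% and 35.6% of their reads. Reads aligned to several places, which no gene received, made up 42.3% and 46.8%. The heart label was checked on marker genes. The cardiac gene Mir208a was at 3885 CPM in replicate 1 and 1485 CPM in replicate 2, and Mir499 at 2732 and 5888 CPM. These 2 genes thus differed between the libraries in opposite directions. Mir208b was at 115 and 56.5 CPM, and the liver gene Mir122 was at 28.8 and 27.1 CPM. Mir1a-2, which carries a muscle miRNA, was at 36.3 and 43.9 CPM, and the other muscle hairpins Mir1a-1, Mir133a-1 and Mir133a-2 were at 0.988 to 3.60 CPM. The 5 matched of 6 neuronal hairpins, of miR-124 and miR-9, had 0 and 4 sense reads in all. The mature miRNAs miR-1a, miR-133a, miR-124 and miR-9 each come from more than one hairpin, so their reads can fall among those aligned to several places, and their low counts say nothing for or against the label. The leukocyte genes Mir142, Mir150, Mir155 and Mir223 together had 26564 and 25295 sense reads. The genes Mir144, Mir451a and Mir486, listed as red cell genes, together had 6431 and 6288. Mir486 alone had 5187 and 5190 of these, and whether its reads came from red cells was not tested. Mir144 was higher in replicate 2, at 32.1 and 52.4 CPM. Mir451a, at 288 and 165 CPM, and Mir486, at 1334 and 1026 CPM, were higher in replicate 1. The endothelial gene Mir126a was at 87115 and 87787 CPM. The smooth muscle genes Mir143 and Mir145a were at 28674 and 40225 CPM and at 1463 and 1522 CPM. What each of these cell types added to the reads of Mir191 and Mir425 was not tested. In bulk tissue, fewer cells of a type and less RNA per cell cannot be told apart.

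Mir191 had 32522 sense reads in replicate 1 and 39396 in replicate 2. These were 8362 CPM (95% Clopper-Pearson interval 8272 to 8453) and 7788 CPM (7711 to 7865). The mean was 8075 ± 406 CPM (SD, n = 2), or 0.807% ± 0.041 of sense counts. The coefficient of variation was 5.03%, beside a median of 19.8% over the 325 detected genes. Those genes had a median level of 49.2 CPM, where counting error is larger. On this scale the interval of replicate 1 still lay wholly above that of replicate 2. Mir191 ranked 19th of the 2202 genes in mean level, and it also ranked 19th in CPM per nucleotide of hairpin, at 109 CPM per nucleotide. Genes whose miRNA comes from several hairpins may rank too low, since reads aligned to several places went to no gene.

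Of the 4 genes nearest to Mir191 in the order of levels, 2 overlapped it in range and 2 did not. Mir34a, a hairpin gene induced by p53 and one rank above, stood at 8747 and 8608 CPM, so both of its libraries lay above both of Mir191. On the scale per nucleotide of hairpin, which is no correction for length, Mir34a stood lower than Mir191, at 85.1 CPM per nucleotide. Mir30d, at 7026 and 11007 CPM, and Mir125a, at 9611 and 6148 CPM, differed more between the libraries than from Mir191, and their ranges spanned it. Mirlet7f-2, 2 ranks below, stood at 6411 and 6923 CPM, under both values of Mir191. Its mature miRNA also comes from Mirlet7f-1, so reads aligned to several places may be missing from its count. With 2 libraries no order among these neighbours was tested.

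Mir425 had 2742 sense reads in replicate 1 and 2835 in replicate 2. These were 705 CPM (95% Clopper-Pearson interval 679 to 732) and 560 CPM (540 to 581), a mean of 633 ± 102 CPM (SD, n = 2). The interval of replicate 1 lay wholly above that of replicate 2. Mir425 held 0.063% ± 0.010 of sense counts and ranked 74th in mean level and 73rd in CPM per nucleotide of hairpin, at 7.44 CPM per nucleotide. The ranges of its 4 nearest neighbours in rank, Mir181b-2, Mir342, Mir467d and Mir181d, all overlapped its own. The place of Mir425 within this group was thus not resolved. The mature miRNA of Mir181b-2 also comes from another hairpin, so reads aligned to several places may be missing from its count.

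Gm24083 had 0 sense reads in replicate 1 and 1 in replicate 2. The floor of 3 reads is 0.771 CPM in replicate 1, and the single read of replicate 2 is 0.198 CPM. Both libraries lay at or under the floor, so no fold against Mir191 is given from them. That 1 read was the same number that the opposite-strand column gave to Mir191 in replicate 2. Nearly every read over this position was on the strand of Mir191.

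The strand columns gave Mir191 and Gm24083 mirrored values. The opposite-strand column gave Gm24083 32522 reads in replicate 1 and 39396 in replicate 2, and the difference from the sense count of Mir191 was 0 reads in both. Gm24083 took 3.79% (95% Clopper-Pearson interval 3.75 to 3.83) and 3.09% (3.06 to 3.12) of all opposite-strand counts. It ranked 4th of the 2202 genes in that column in replicate 1 and 3rd in replicate 2. Read in the wrong strand column, Gm24083 would stand among the most abundant miRNA genes. Mir425, with no miRNA gene opposite, had 0 opposite-strand reads in both libraries.

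In the column that ignores strand, Mir191 had 0 reads in both libraries. For a count of 0, up to 0.0092% of its sense reads in replicate 1 and 0.0076% in replicate 2 could have been kept. Gm24083 also had 0 there, while Mir425 kept all its reads, 2742 and 2835. Reads over both genes of an overlapping pair are set aside as ambiguous when strand is ignored. The sense reads of Mir191 equalled 3.79% of the 857957 ambiguous reads of replicate 1 and 3.09% of the 1274429 of replicate 2.

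**Figure D2:**
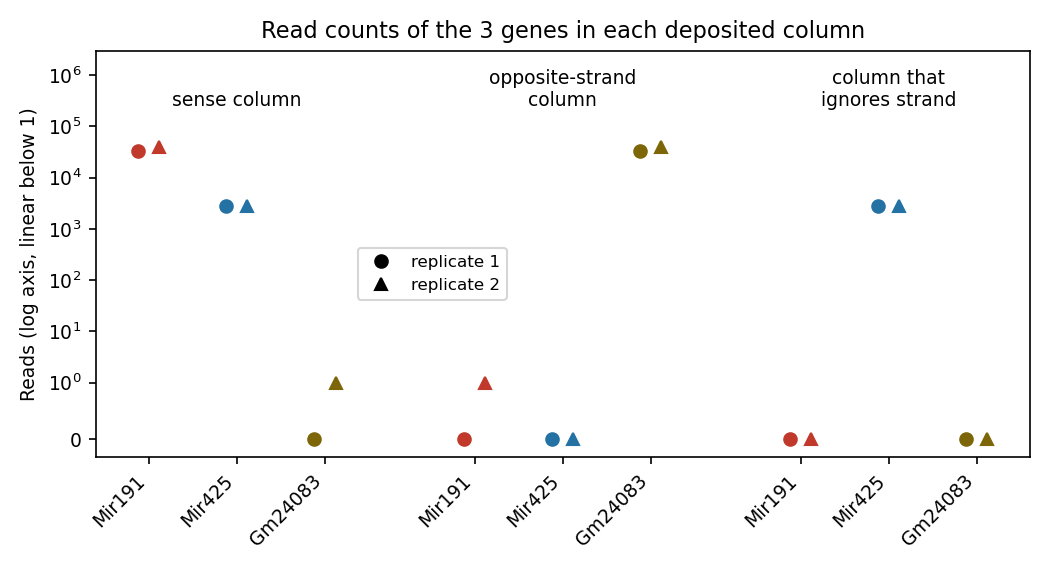
Reads of Mir191, Mir425 and Gm24083 (horizontal axis) in the sense, opposite-strand and strand-blind columns, on a log axis that is linear below 1; circles are replicate 1 and triangles replicate 2. Gm24083 in the opposite-strand column repeats the 32522 and 39396 sense reads of Mir191, and the strand-blind column keeps Mir425 alone.

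Mir191 shared this behaviour with the other detected genes that have a miRNA gene on the opposite strand. There were 20 such genes, and 16 of them had 0 reads in both libraries when strand was ignored. The share kept lay between 0% and 3.08% over the 20 genes and both libraries. Mir191 had the third highest sense count of the 20 in sum over the libraries, after Mir378a with 413035 and 721126 sense reads and Mir126a, a hairpin gene of endothelial cells, with 338813 and 444082. Next came Mir30e, with 33907 and 22856 sense reads, and Mirlet7e, with 24177 and 31480. Of these 5, Mir126a kept 27 and 23 reads and the other 4 kept 0. The 305 detected genes with no miRNA gene opposite, Mir425 among them, all had strand-blind counts equal to the sum of their strand counts.

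Within the cluster, Mir191 was the more abundant hairpin in both libraries. Replicate 1 held 11.9 Mir191 reads for each Mir425 read (95% exact interval 11.4 to 12.3), and replicate 2 held 13.9 (13.4 to 14.4). The mean was 12.9 ± 1.44 (SD, n = 2), and per nucleotide of hairpin it was 14.8 ± 1.65. Mir425 made up 7.78% and 6.71% of the reads of both hairpins. The intervals of the ratio in the 2 libraries did not overlap. The odds ratio, replicate 2 over replicate 1, was 1.17 (95% exact interval 1.11 to 1.24, two-sided Fisher's exact test, p = 1.33e-08). This test needs no scaling between libraries. It covers counting error and compares these 2 libraries, not conditions.

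The ratio was set beside those of other neighbouring miRNA genes. The 325 detected genes held 88 neighbouring pairs on the same strand with a gap of at most 10 kb, over 133 genes. For each pair the level of the higher gene was divided by that of the lower, both as mean CPM per hairpin. On that measure Mir191 stood 12.8-fold above Mir425, beside a median of 4.49-fold over the other 87 pairs, of which 66 had a smaller ratio. The pairs nearest in ratio were Mir181a-1 with Mir181b-1 at 12.4-fold, Mir30e with Mir30c-1 at 11.9-fold and Mir337 with Mir493 at 13.9-fold. All 3 moved more between the libraries, from 7.67 to 33.2, from 16.9 to 7.60 and from 21.4 to 9.55. Mir181b-1 and Mir493 stood at means of 8.52 and 3.46 CPM, beside 633 CPM for Mir425. Counting error is larger at such low levels, and its part in these moves was not tested. The mature miRNAs of Mir181a-1, Mir181b-1 and Mir30c-1 also come from other hairpins, so reads aligned to several places may be missing from their counts and their ratios are uncertain. The log2 ratios of Mir191 and Mir425 between libraries were 0.23 apart, beside a median of 0.48 for the other pairs, and 15 of the 87 were closer together. Some of the other pairs hold genes of a few CPM, such as Mir494 at 2.99 and Mir543 at 2.80 CPM. Counting error alone can widen the gap of such pairs. Pairs of one cluster share genes, so these are descriptions and no test was made.

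**Figure D3:**
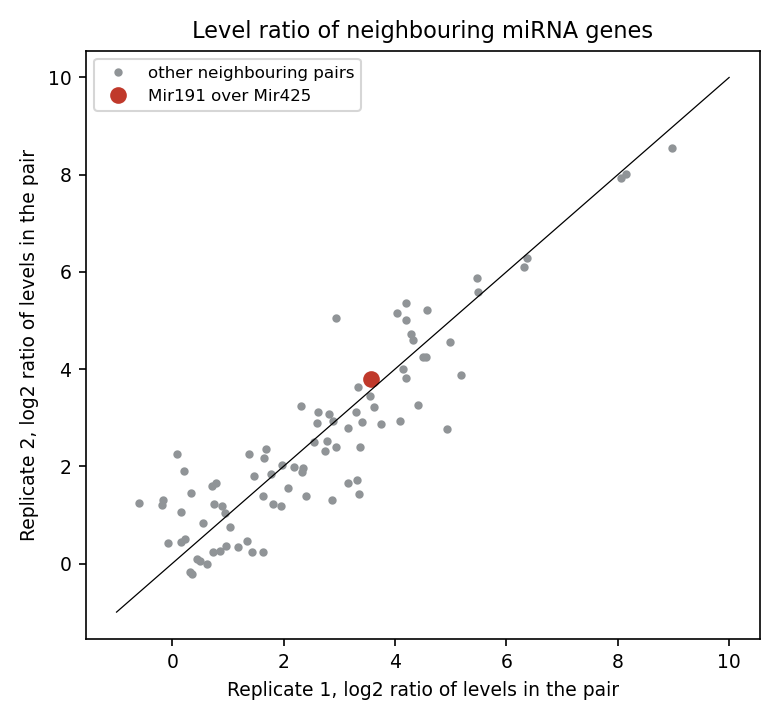
Log2 ratio of the levels (CPM) of the higher over the lower gene in the 88 neighbouring pairs of detected miRNA genes, replicate 1 on the horizontal and replicate 2 on the vertical axis; the line marks equality. The red point, Mir191 over Mir425 at ratios of 11.9 and 13.9, lies near the line.

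Between the libraries, with TMM scaling, Mir425 was higher in replicate 1, and Mir191 did not pass the test. Each gene's counts were compared by an exact binomial test (two-sided) with TMM-scaled library sizes, and p-values were adjusted over the 412 genes that had at least 10 sense reads in sum. Of these, 45.4% were called at an adjusted p of 0.05. Of the 3 genes, Mir191 and Mir425 passed the filter on reads, and Mir425 was called. The log2 ratio, replicate 2 over replicate 1, was taken on TMM-scaled CPM with 1 CPM added, which understates changes of low genes. For Mir191 it was 0.022 (exact binomial test, adjusted p = 0.0800). For Mir425 it was -0.21, or 1.15-fold higher in replicate 1 (exact binomial test, adjusted p = 3.61e-07). With 22.6% of tested genes called higher in replicate 1, a call such as that of Mir425 was common in these libraries. The test covers counting error alone. A call is a difference between these 2 libraries and does not show one between animals or conditions.

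How these differences ranked among those of other genes depended on the scaling. Among the 325 detected genes the median size of the log2 ratio was 0.36 with TMM. With TMM 17 genes had a smaller one than Mir191, and with DESeq2 size factors 25. The number was 48 with total counts and 59 with all reads in the table as denominator. For Mir425 the numbers, in the same order, were 93, 81, 137 and 154. The direction of Mir191 was not settled, since its log2 ratio was -0.10 with total-count scaling (exact binomial test, adjusted p = 1.53e-20) and 0.052 with DESeq2 size factors (exact binomial test, adjusted p = 4.75e-06). Total-count scaling moved the median of the detected genes from 0.0055 to -0.12. Relative to that median, Mir191 stood at 0.017 with TMM and 0.016 with total counts, and Mir425 at -0.21 with both. Over all genes, replicate 2 held the higher level in 50.3% of calls with TMM and 39.7% with total counts.

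The genes whose values were most like those of the cluster were found by distance in log2(CPM + 1) over the 2 libraries. For Mir191 the 3 nearest of the detected genes were Mir34a at a distance of 0.16, Mir30a at 0.29 and Mir125a at 0.40. Mir30a, a hairpin gene of the miR-30 family, stood at 9099 and 9364 CPM. For Mir425 they were Mir467d at 0.076, Mir342 at 0.10 and Mir20a at 0.19. Mir467d stood at 671 and 550 CPM, Mir342 at 687 and 599 CPM, and Mir20a, a member of the miR-17-92 cluster, at 747 and 629 CPM. All 6 lie on other chromosomes. On chromosome 9 the nearest other detected gene was Mir6236, 1713 kb away, at 30.1 and 22.7 CPM, so the cluster had no close neighbour among detected miRNA genes.

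**Figure D4:**
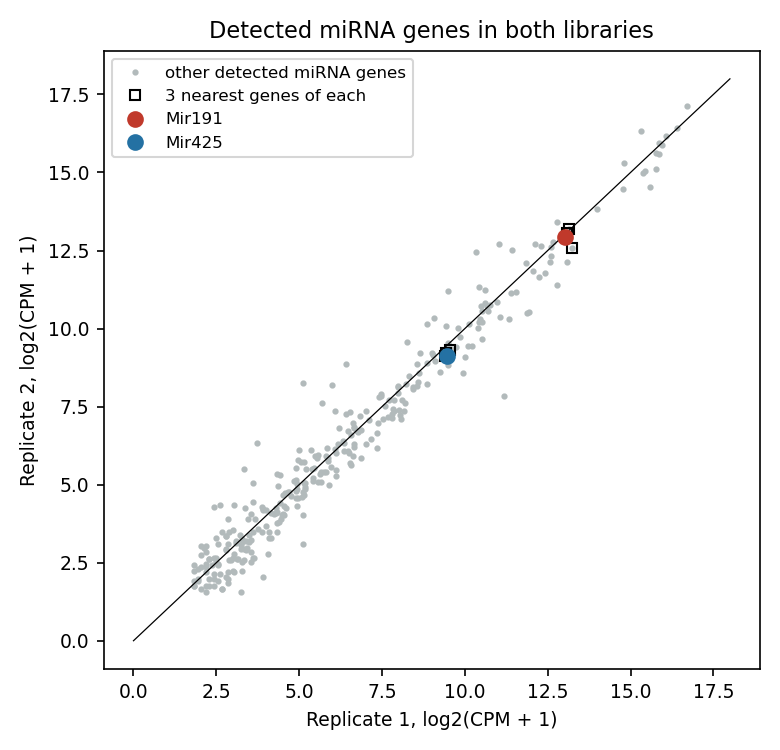
Levels of the 325 detected miRNA genes as log2(CPM + 1), replicate 1 on the horizontal and replicate 2 on the vertical axis; squares mark the 3 genes nearest to Mir191 and to Mir425, and the line marks equality. Mir191 at 8362 and 7788 CPM and Mir425 at 705 and 560 CPM lie near the line.

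Since miR-191 often serves as a reference in quantitative PCR, a list of 21 hairpin genes of such miRNAs was described beside it, with Mir191 and Mir425 among them. All 21 were tested, and 8 were higher in replicate 2 and 9 in replicate 1 by the exact binomial test, or 81.0% beside 45.4% of all tested genes. The tested genes of the list had a median level of 498 CPM, beside 21.2 CPM over all tested genes, and an exact binomial test calls smaller differences where reads are many. The median log2 ratio of the list was -0.03, beside -0.0038 over all tested genes, and the median size was 0.31 beside 0.39. Apart from Mir191, the genes not called were Mir25 at a log2 ratio of -0.03, Mir186 at 0.099 and Mir103-1 at -0.55 with 8 and 5 reads.

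Mir191 had the smallest log2 ratio in size of the 21 with TMM. With total counts 2 others had a smaller one, and with DESeq2 size factors 1 other. Mir425 had 8 others below it with TMM, 10 with total counts and 7 with DESeq2 size factors. Other genes of the list differed far more. Mir423 stood at 3781 CPM in replicate 1 and 1433 CPM in replicate 2, 2.42-fold higher in replicate 1. Mir30e stood at 8718 and 4518 CPM, and Mir484 at 1037 and 543 CPM, both higher in replicate 1. Mir16-1 was higher in replicate 2, at 403 and 592 CPM. Mir26a-2 stood at 33.7 and 308 CPM, 9.71-fold higher in replicate 2. The mature miRNAs of Mir16-1, Mir16-2, Mir24-1, Mir24-2, Mir26a-1, Mir26a-2, Mir103-1, Mir103-2, Mirlet7a-1 and Mirlet7a-2 come from more than one hairpin, so their reads can fall among those aligned to several places and their values are uncertain.

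**Figure D5:**
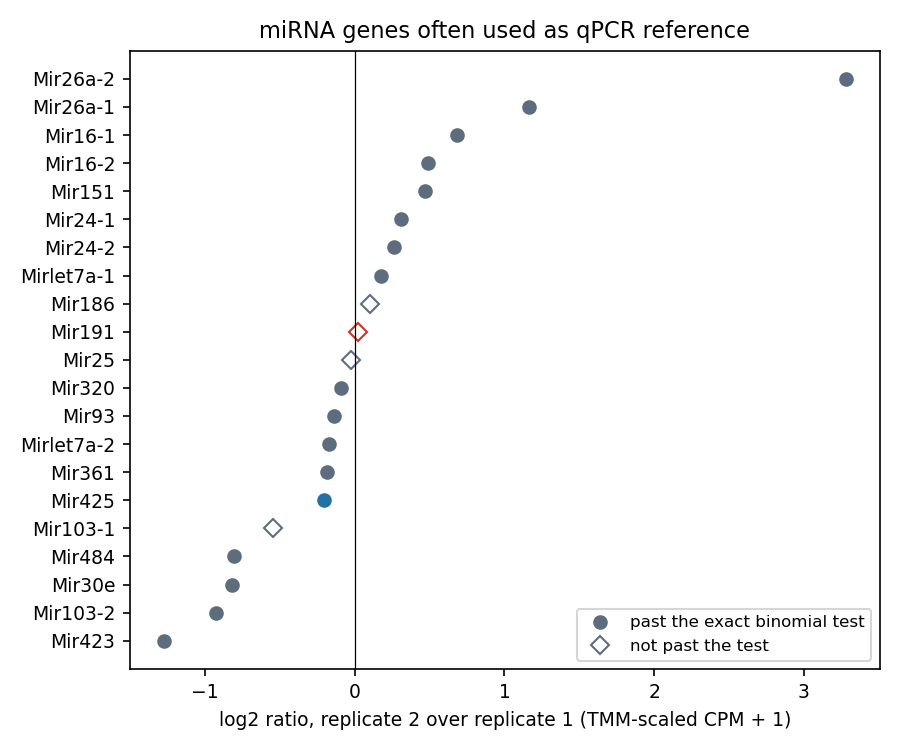
Log2 ratio of TMM-scaled levels (CPM + 1), replicate 2 over replicate 1, for the 21 hairpin genes of miRNAs often used as reference, in order of the ratio; filled circles passed the exact binomial test and open diamonds did not. Mir191 (red) lies at 0.022 and Mir425 (blue) at -0.21, while the list runs from -1.27 for Mir423 to 3.28 for Mir26a-2.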

How the data were processed

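The deposited tables, 1 for each of the 2 heart libraries, hold raw read counts by the authors for 2202 miRNA genes in 3 count columns, below 4 summary lines. Build mm10 and annotation M21 are given per the file headers of the deposited description files; aligner and filters: not given in the sources used here. By their values, 1 column is blind to strand and 2 are strand-specific; of these, the one whose gene sum was larger in each library was used as sense. Summary lines, 64.1% and 64.4% of reads, stayed out of library sizes and tests. All 2202 identifiers matched GENCODE M21.

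Levels are CPM of sense counts. TMM sizes came from edgeR 4.0.16 and alternative size factors from DESeq2 1.42.0; with a single group, no quasi-likelihood test was run. Exact binomial tests and Clopper-Pearson intervals used scipy 1.17.1, with Benjamini-Hochberg adjustment at 0.05; log2 ratios carry 1 CPM on both levels. The test script was tested on simulated data. Folds came from ViennaRNA 2.7.2. No molecular identifiers are recorded, and intervals, floors and tests describe counting error alone.

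The genes and lists were chosen with earlier results of these data known. Named genes are the 3 members, the 3 detected genes nearest to Mir191 and to Mir425, the reference list, the 5 most counted genes with a gene opposite, the 3 pairs nearest in ratio, and, added after values were seen, neighbours in rank and on chromosome 9, and Mir489. Alternatives were the strand column, scaling, denominator, low-count filter, pseudocount, hairpin length and leaving out each library.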

Additional observations from a re-analysis of the deposited data

How the results depend on the processing

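The strand column mattered most for Mir191: when strand was ignored its level was 0 CPM and its ratio to Mir425 was 0, as Gm24083 overlaps it, and no ratio between libraries could be tested. Mir425 then stood at 827 CPM, because the total was smaller. With all reads in the table as denominator, Mir191 stood at 2888 CPM and Mir425 at 226 CPM of all reads. Per nucleotide of hairpin, Mir191 to Mir425 was 14.8. The log2 ratio of Mir191 between libraries was 0.022 with TMM (exact binomial test, adjusted p = 0.0800). It was -0.10 with total sense counts, -0.12 with all reads and 0.052 with DESeq2 size factors. Mir191 passed the exact binomial test with each of these other scalings. Its adjusted p in that test ran from 4.42e-26 to 0.131 over the alternatives. The log2 ratio of Mir425 ran from -0.34 to -0.18 and was called throughout (exact binomial test, adjusted p from 2.99e-18 to 1.70e-05). Genes called numbered 172 to 199, against 187. Their share of the genes tested was 25.6% with no low-count filter and 61.3% with a sum of at least 50 reads, against 45.4%. Without replicate 1, Mir191 stood at 7788 CPM, Mir425 at 560 CPM, Gm24083 at 0.198 CPM and the ratio at 13.9; without replicate 2, at 8362, 705 and 0 CPM and 11.9. No paired analysis was possible because the labels hold a single group. With 1 read or fewer per library, the depth does not show whether Gm24083 is expressed.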
